A study of Mus musculus with 18 samples.

Results

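The colon of mice with bone cancer was compared with the colon of sham-operated mice, in bulk RNA-sequencing libraries from animals labelled WT. The sham group had sham surgery with control IgG and the cancer group had bone cancer with control IgG, with 3 libraries in each, so that 6 of the 18 libraries of the series were compared. Another colon group of 3 libraries, bone cancer with the PD-1 antibody nivolumab, entered the fit to help estimate the spread, and its values are given only where they stand beside a result. The other 9 libraries of the series came from the spinal dorsal horn. The series set out to describe PD-1 blockade in acute bone cancer pain through transcripts and gut microbes. For the colon, the question of the present comparison is which transcripts differ when a tumour grows in bone, away from the gut. The tumour cells, the bone, the strain, sex and age of the mice and the day of collection were not given in the sources used here. Nothing in the labels says that each library came from a separate animal, so the p-values measure only the spread between these libraries, which may be partly technical.

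The colon wall holds an epithelium of absorptive colonocytes and mucus-secreting goblet cells, renewed from Lgr5-expressing stem cells at the base of the crypts. Beneath the epithelium lie plasma cells that secrete IgA, macrophages, fibroblasts that send Wnt and BMP signals to the crypt, and then smooth muscle with the enteric nervous system. Colonocytes answer microbes and cytokines by making antimicrobial lectins of the Reg3 family, reactive oxygen and nitric oxide. In bulk tissue, fewer cells of a type and less RNA per cell cannot be told apart.

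The 6 libraries held between 20896854 and 30803957 counts on 14987 genes, and the nivolumab libraries lay within that range. Within a group, no pair of libraries differed by as little as sampling noise, with a chi-square per degree of freedom between 71.0 and 208. Epithelial genes were abundant in every library, and Epcam, the epithelial adhesion molecule, lay at 1681, 1258 and 1849 CPM in sham (CPM are counts scaled to library size with TMM factors) and at 2057, 2018 and 1991 in cancer. Transcripts of muscle and nerve, which lie in the deeper wall, differed more between the libraries. The mean log2 CPM of 20 smooth muscle genes was 8.03, 9.43 and 5.97 in sham 1 to 3 and 7.98, 9.0 and 9.60 in cancer 1 to 3. That of 21 enteric neuron genes was 2.85, 4.16 and 0.25 against 3.03, 5.31 and 3.65. Sham 3 had the lowest values for muscle and neurons, and cancer 2 the highest for neurons. Dividing-cell genes stood the other way in cancer 2: the mean log2 CPM of 36 cell cycle genes was 5.65, 5.69 and 5.99 in sham and 5.29, 2.70 and 5.12 in cancer. On the first principal component of the 9 colon libraries, which held 41.9% of the variance, sham 3 (-88.0) and cancer 2 (99.6) were the ends. Counts of gene groups below are therefore also given without sham 3 and cancer 2.

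**Figure D1:**
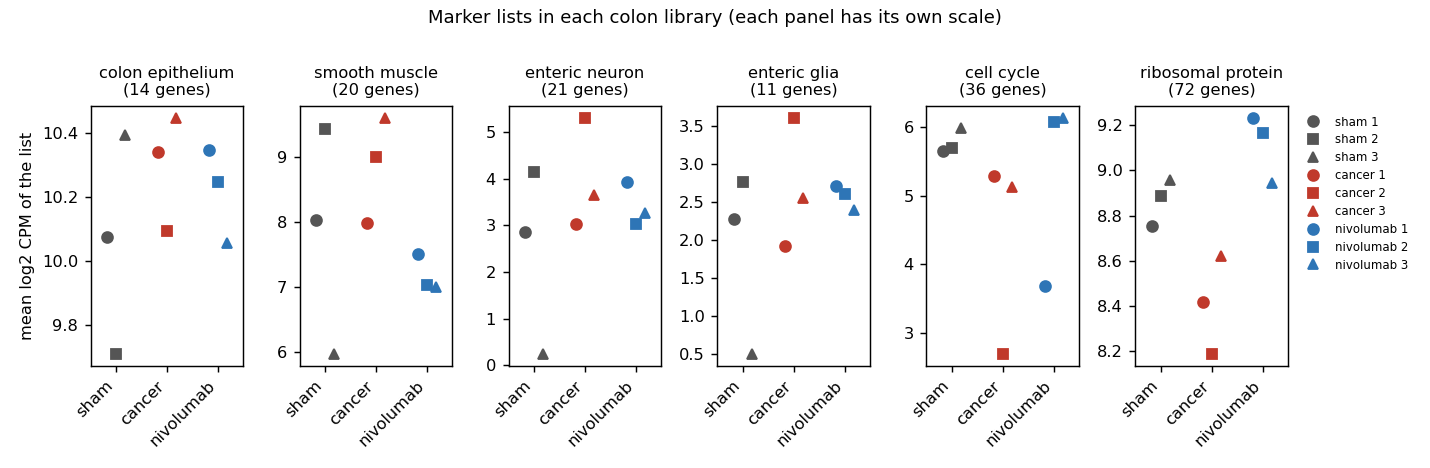
Mean log2 CPM (y axis, a separate scale in each panel) of 6 gene lists in each of the 9 colon libraries, with one point per library, coloured by group and shaped by replicate number. Sham 3 is lowest for smooth muscle (5.97) and enteric neurons (0.25), cancer 2 is lowest for cell cycle genes (2.70), and the 3 cancer libraries lie under all sham libraries for ribosomal protein genes.

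No single gene was called. Most genes of mucosal defence stood higher in the cancer colons, and genes of inflammation mostly in cancer 1 and cancer 2. Genes of plasma cells, secretory cells, the crypt base, sterol synthesis and the ribosome stood lower. In both directions, many of these genes had no overlap between the groups. Of 13445 genes tested, 0 passed an adjusted p of 0.05 in edgeR's quasi-likelihood test (0%). The smallest adjusted p was 0.0748, shared by 13 genes, and 18 genes were under 0.1. An unadjusted p under 0.05 was reached by 1468 genes, where 672 would be expected if no gene differed. Of these, 724 were higher in cancer (5.38% of genes tested) and 744 lower (5.53%), and 313 higher and 266 lower genes also differed at least 2-fold. Groups did not overlap for 936 genes that were higher (6.96%) and 1655 that were lower (12.3%). The median log2 difference over all genes was 0.00. DESeq2 called 384 genes, 223 of them higher and 161 lower, limma-voom called 0, and limma-voom with library quality weights called 31. The 1468 genes became 941 without sham 1, 892 without cancer 2 and 883 without both sham 3 and cancer 2. The estimated biological coefficient of variation was 0.376.

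Among the 12 higher genes with the smallest p, Ly6d stood first. It encodes a small GPI-anchored surface protein of the Ly6 family, known from squamous epithelium and lymphoid progenitors, and lies on chr15:74762056-74763620 of GRCm38, minus strand. Ly6d was at 5.86, 9.49 and 6.61 CPM in the sham libraries and at 167, 355 and 95.9 CPM in the cancer libraries, a mean of 7.32 ± 1.92 against 206 ± 134 (SD, n = 3 each) or 28.2-fold. Its log2 difference was 4.82 ± 0.51 (SE, edgeR adjusted p = 0.0748). The lowest cancer library was far above the highest sham library, and the nivolumab libraries lay at 10.4, 13.0 and 17.8 CPM. Psca, which encodes the related GPI-anchored prostate stem cell antigen and lies nearby on the same chromosome (74714839-74717069), was at 0.22, 0.08 and 0 CPM in sham and at 12.9, 52.3 and 11.3 CPM in cancer. The ratio of its summed counts was 251-fold, with a 95% interval of 132 to 550 that covers counting error only. The mean level of Psca over the 6 libraries was under the minimum for the 12, and its log2 difference was 7.89 ± 1.06 (edgeR adjusted p = 0.0748).

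Genes around Ly6d and Psca stood the same way, a set looked up after these values were seen. Within 100 kb of Ly6d the table held 8 tested genes. At an unadjusted p under 0.05, 7 of them were higher in cancer, beside 5.38% of all genes. The 7 include Ly6d and Psca, whose values led to the lookup, so the count is a description only. Beside Ly6d and Psca, Gml was at 0.44, 0.48 and 0.60 CPM in sham and at 1.81, 9.01 and 3.28 CPM in cancer. Them6 was at 3.32, 4.41 and 3.14 CPM in sham and at 10.3, 18.9 and 6.91 CPM in cancer. Jrk, Ly6k and Arc made up the 7, with log2 differences of 1.30, 2.57 and 1.44, and Ly6k overlapped between the groups. Levels in sham were low for Ly6k (0.38, 0.32 and 0.60 CPM) and Arc (0.85, 1.39 and 1.13 CPM). The one gene of the 8 with a larger p was Lynx1, at a log2 difference of 0.40 (edgeR adjusted p = 0.619). Reads of near-identical Ly6 family copies may be split between genes, and how the counting treated them was not given in the sources used here. Defining keratins of squamous epithelium, a tissue in which Ly6d is abundant, were near the limit of detection: Krt5 lay between 0 and 0.99 CPM and Krt13 between 0.24 and 2.93 CPM over the 6 libraries. Among 10 tested squamous genes, 9 had a positive log2 difference, with a median of 0.82. Ly6d and Psca were the 2 that were higher at an unadjusted p under 0.05, and 1, the desmoglein Dsg3, was lower. Over all genes, 5.38% were higher and 5.53% lower at that p. Without overlap, 3 were higher, beside 6.96% of all genes. The mean log2 CPM of the squamous list was 0.74, 0.64 and -0.24 in sham and 1.65, 1.94 and 1.82 in cancer. Ly6d and Psca are members of that list and were chosen by their own differences. The list's mean therefore cannot show how its other members stood. Without sham 3 and cancer 2 the list's median log2 difference was 0.32, with 2 genes higher and 0 lower. The part of squamous tissue in the values of Ly6d and Psca was not tested.

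Tnf, the cytokine tumour necrosis factor, was even among the sham libraries at 5.51, 5.52 and 5.67 CPM and higher in all cancer libraries at 21.7, 31.0 and 19.1 CPM. Its log2 difference was 2.10 ± 0.29 (edgeR adjusted p = 0.0748). Lpo, which encodes lactoperoxidase, an enzyme of antimicrobial secretions, was at 38.5, 17.1 and 25.1 CPM against 453, 162 and 528 CPM. That is a mean 14.2-fold higher, a log2 difference of 3.82 ± 0.53 (edgeR adjusted p = 0.0748). Trim40 and Trim15, neighbours in the MHC region that encode members of the tripartite motif family of ubiquitin ligases, were 2.30-fold and 2.94-fold higher. Trim40 read 147, 124 and 113 CPM in sham and 257, 273 and 355 CPM in cancer. Smad3, which carries TGF-beta signals to the nucleus, was among the tightest, at 49.7, 44.6 and 55.8 CPM against 101, 81.6 and 83.9 CPM. The remaining genes of the 12 were Zfp868 (a zinc finger protein, 2.90-fold), Zbtb16 (a transcription factor known to be induced by glucocorticoids, 9.24-fold), Sema7a (a GPI-anchored semaphorin, 3.59-fold), Col20a1 (a collagen chain, 4.07-fold), Plaur (the urokinase receptor, 3.05-fold) and Efhd2 (a calcium-binding adaptor, 1.83-fold). By the rule that picked them, none of the 12 overlapped between the groups, and their adjusted p-values in edgeR lay between 0.0748 and 0.136.

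Among the 12 lower genes, of which 11 are described here, Reg4 was near 0 in cancer. Reg4 encodes a secreted C-type lectin of goblet and enteroendocrine cells that marks the deep crypt secretory cells of the mouse colon, and lies on chr3:98222156-98236748 of GRCm38. It was at 853, 2362 and 875 CPM in sham and at 6.91, 0.83 and 3.88 CPM in cancer, a mean 352-fold lower. Its log2 difference was -8.46 ± 1.20 (edgeR adjusted p = 0.0748). Reg4 was also low in the nivolumab libraries, at 29.7, 158 and 21.4 CPM.

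Jchain, which encodes the joining chain of IgA and IgM, was at 912, 1146 and 1030.1 CPM in sham and at 256, 162 and 88.5 CPM in cancer. Its log2 difference was -2.61 ± 0.38 (edgeR adjusted p = 0.0760). Acaca, the acetyl-CoA carboxylase that commits carbon to fatty acid synthesis, differed little within each group, at 99.8, 100 and 95.4 CPM against 56.2, 53.1 and 60.3 CPM. Gsta3, a glutathione S-transferase, read 17.3, 25.1 and 18.3 CPM in sham and 3.58, 6.31 and 5.12 CPM in cancer. In the nivolumab libraries Gsta3 was at 18.3, 22.4 and 23.7 CPM, within or close to the sham range. The rest of the 11 were Rpl29 (a ribosomal protein, 2.29-fold lower), Entpd4 (a nucleotidase of the Golgi and lysosome, 1.98-fold lower), Fam221a (5.26-fold lower), Serinc3 (a membrane protein known to restrict retroviruses, 2.06-fold lower), Add3 (the cytoskeletal gamma adducin, 1.72-fold lower), Fam83b (3.73-fold lower) and Reep6 (an endoplasmic reticulum protein, 2.55-fold lower). Adjusted p-values of the 11 in edgeR lay between 0.0748 and 0.112. Entpd4 has a near-identical copy in the mouse genome and ribosomal protein genes have many processed copies, so how reads were assigned among copies could move their values.

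**Figure D2:**
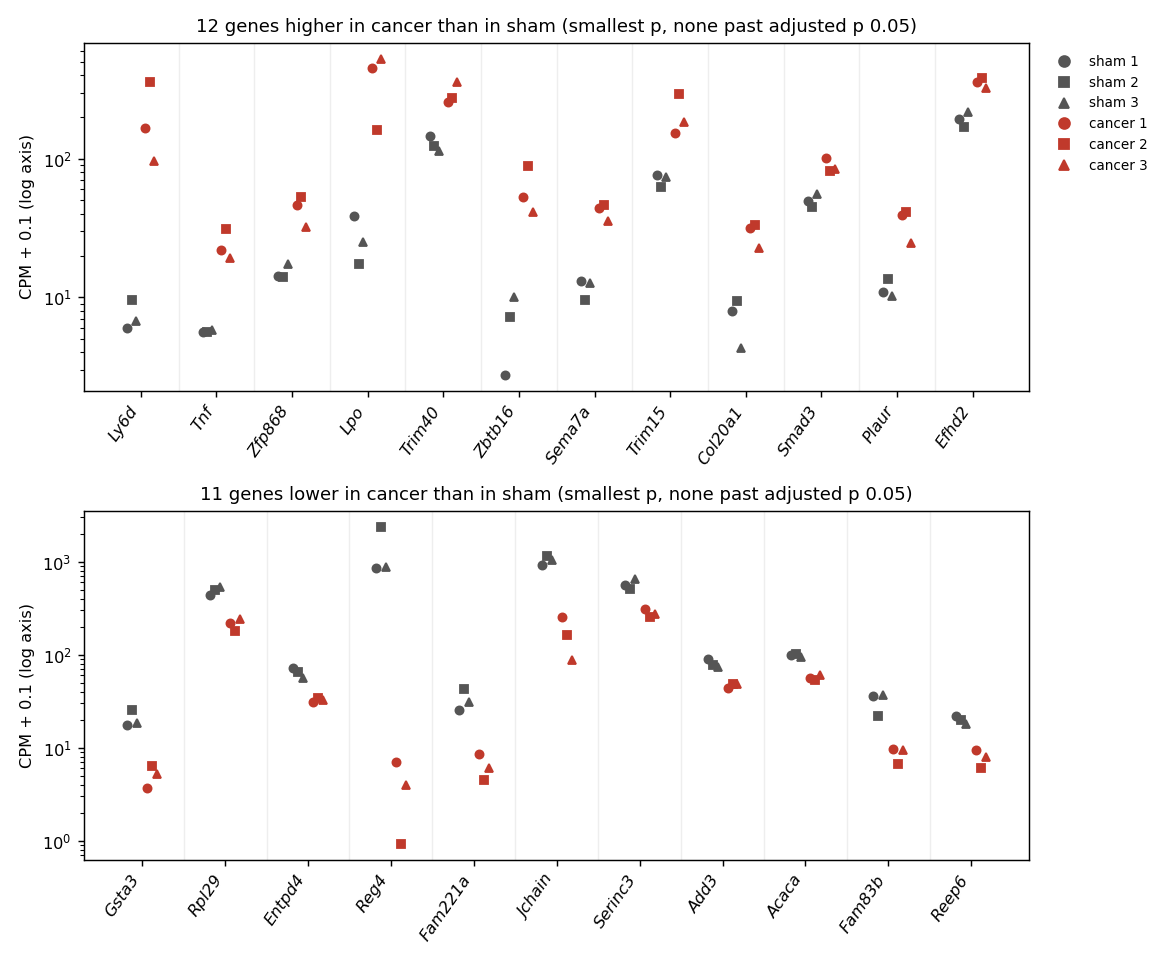
CPM plus 0.1 on a log axis for the 12 higher (top) and 11 of the 12 lower (bottom) genes with the smallest p among those without overlap, with one point for each sham (grey) and cancer (red) library. Ly6d runs from under 10 CPM in sham to between 95.9 and 355 CPM in cancer, while Reg4 runs from 853 CPM or more to 6.91 CPM or less.

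Acute phase and activation genes, which cytokines of the IL-6 family switch on through STAT3, stood higher mostly in cancer 1 and cancer 2. The list's mean log2 CPM was 4.22, 4.26 and 3.92 in sham and 5.58, 5.99 and 4.26 in cancer. Cancer 3 thus lay within the sham range. Of 17 tested, 10 were higher at an unadjusted p under 0.05, beside 5.38% of all genes, 0 were lower, and the list's median log2 difference was 1.11. Lrg1, a secreted glycoprotein of the acute phase, was at 3.42, 5.60 and 1.80 CPM in sham and at 104, 59.8 and 15.8 CPM in cancer. Steap4, a metalloreductase induced by IL-6, read 19, 19.8 and 8.78 CPM against 70.1, 55 and 102 CPM. Socs3, the inhibitor that STAT3 induces to end its own signal, read 52.3, 41.9 and 36.1 CPM against 247, 181 and 72.5 CPM. Groups did not overlap for these genes, and their adjusted p-values in edgeR were 0.172, 0.172 and 0.181. Cancer 3 was the lowest cancer library for Lrg1 and Socs3 but the highest for Steap4. The count of 10 was 6 without sham 3 and cancer 2.

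Defence genes of the epithelium stood higher for the most part. Of 17 tested genes for mucosal antimicrobial and oxidant defence, 7 were higher at an unadjusted p under 0.05, beside 5.38% of all genes. The list's median log2 difference was 0.53, and 0 were lower at that p. It had 12 positive and 5 negative log2 differences. Without overlap, 5 were higher and 2 lower, beside 6.96% and 12.3% of all genes. Reg3g and Reg3b encode lectins that kill or hold off bacteria at the mucosal surface. Reg3g was at 227, 48.4 and 114 CPM in sham and at 1873, 1888 and 1148 CPM in cancer, a mean 12.6-fold higher. Reg3b was at 781, 91.7 and 389.9 CPM against 3903, 8033 and 3438 CPM, a mean 12.2-fold higher. Nos2, the inducible nitric oxide synthase, was at 58.7, 63.4 and 29.8 CPM against 255, 381 and 340 CPM. The 3 cancer libraries stood above every sham library for all these genes, and edgeR adjusted p-values were 0.181 for Reg3g and Nos2 and 0.274 for Reg3b. The count of 7 was 4 without sham 2 and 4 without both sham 3 and cancer 2.

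Cytokine and chemokine genes were more mixed. Of 38 tested, 9 were higher and 1 was lower at an unadjusted p under 0.05, beside 5.38% and 5.53% of all genes. Without overlap, 3 were higher and 4 lower, near the shares over all genes (6.96% and 12.3%). The list's mean log2 CPM was 2.56, 2.49 and 2.08 in sham and 2.81, 3.38 and 1.65 in cancer. Cancer 3 thus lay under every sham library. The median log2 difference of the list was 0.33. The median turned to -0.21 without cancer 2 and to -0.36 without both sham 3 and cancer 2. After Tnf, the smallest p belonged to Il18, an epithelial cytokine of the IL-1 family, at 27.4, 46.5 and 39.5 CPM in sham and 209, 129 and 76.3 CPM in cancer (edgeR adjusted p = 0.181). Il1rn, the natural antagonist of the IL-1 receptor, read 48.4, 44.1 and 47.0 CPM against 147, 140 and 48.2 CPM. Cancer 3 lay among the sham libraries for Il1rn, so the groups overlapped. Ccl6 was the lower one, at 348, 331 and 253 CPM against 242, 126 and 110 CPM. The count of 9 was 5 without sham 3 and cancer 2.

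Upstream sequence is shown for the cytokine genes because 4 of the 8 higher ones with a sequence window hold the kappa B consensus, the site read by NF-kappa B. RefSeq windows of 250 bases before the gene start (GRCm38.p6) were searched for that 10-base consensus on both strands. Of 25 tested cytokine and chemokine genes with a window, 8 (32.0%) hold a match, beside 8.23% of all 27025 genes with a window and 7.25% of the 32851 windows. A narrower form with fixed T letters, searched first and then replaced by the consensus, matched 7 of the 25 genes (28.0%) beside 1.65% of all genes, and 4 of the 8 higher ones. Il1rn held the narrower form and not the consensus, and Lif and Tgfb1 the reverse. Both forms were chosen after the values were seen. The consensus was present in 2 of 13 acute phase genes and in 3 of 14 defence genes. Among the higher ones with a window, it was present in 1 of 8 acute phase genes and in 1 of 5 defence genes. The stretches of 30 bases run 5′ to 3′ on the gene's strand, with the match nearest the gene start in capitals.
Il6: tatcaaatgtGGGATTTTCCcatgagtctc
Cxcl1: ctgtactccgGGAATTTCCCtggcccggag
Cxcl2: ctgagctcagGGAATTTCCCtggtccccgg
Lif: atcaagtacaGGGACGCCCCctccccacac
They lie at chr5:30013060-30013089, chr5:90891165-90891194, chr5:90903793-90903822 and chr11:4257380-4257409, all on the plus strand, with the match starting 44, 70, 96 and 178 bases before the gene start. Cxcl1 and Cxcl2 carry the same 10 letters. Lif encodes a cytokine of the IL-6 family and read 8.23, 8.57 and 9.28 CPM in sham and 22.2, 15.2 and 10.4 CPM in cancer. The other 4 holders, Ccl20, Ccl9, Csf1 and Tgfb1, had log2 differences of -0.65, 0.00, -0.12 and 0.01. Ccl20, an attractant of dendritic and lymphoid cells, is shown for comparison, from chr1:83116676-83116705.
Ccl20: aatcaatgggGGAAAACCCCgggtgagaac
Il6 itself was at the edge of detection, at 0.06, 0 and 0.20 CPM in sham and at 0.99, 1.78 and 0.20 CPM in cancer. Cxcl1 and Cxcl2, which encode neutrophil attractants, were at 1.42, 1.23 and 0.30 CPM and 0.92, 0.32 and 0.70 CPM in sham. In cancer they were at 8.03, 6.44 and 0.94 CPM and 5.31, 7.09 and 0.50 CPM. For Il6, Cxcl1 and Cxcl2, cancer 3 lay within the sham range while cancer 1 and cancer 2 lay above it. A match in a window is a description of its letters only.

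Neutrophil genes were low in sham, at 7.18 CPM (Il1b, a cytokine that neutrophils share with macrophages) or less, and were highest in cancer 2 among the 6 libraries. Of 15 listed genes 13 were in the table and 12 passed the filter on low counts, 8 of them when the filter saw sham and cancer libraries only. The other 4 passed only with the nivolumab libraries. A gene near 0 in sham could pass only through a group where it was high, so the counts that follow are a description. At an unadjusted p under 0.05, 8 of the 12 were higher and 0 were lower, beside 5.38% and 5.53% of all genes. With sham and cancer libraries only, 5 of 8 were higher, beside 603 of 13229 genes. The median log2 difference was 4.61 over the 12, also with the 2 genes at 0 in every sham library set to their lower bound, and 3.94 over the 8. It was 2.63 without cancer 2 and 2.33 without both sham 3 and cancer 2. The list's mean log2 CPM was -0.73, -1.26 and -1.85 in sham and 1.68, 3.47 and -0.78 in cancer, so that cancer 3 lay within the sham range. S100a8, a calcium-binding protein that neutrophils carry in bulk, was at 0.41, 0 and 0 CPM in sham and at 3.5, 15.4 and 1.54 CPM in cancer. Ltf, the iron-binding lactoferrin of neutrophil granules, was at 1.74, 1.47 and 0.70 CPM against 9.37, 32.2 and 4.77 CPM (edgeR adjusted p = 0.173). Mmp8, the neutrophil collagenase, was at 0 in all sham libraries and at 2.93, 11.6 and 0.25 CPM in cancer, at least 148-fold higher over the group against a floor of 3 counts. Cancer 2 was the highest and cancer 3 the lowest of the cancer libraries for these 3 genes. Levels were low throughout, and the nivolumab libraries read 32.9, 4.47 and 40.4 CPM for S100a8. The count of 8 was 3 without sham 3 and cancer 2.

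**Figure D3:**
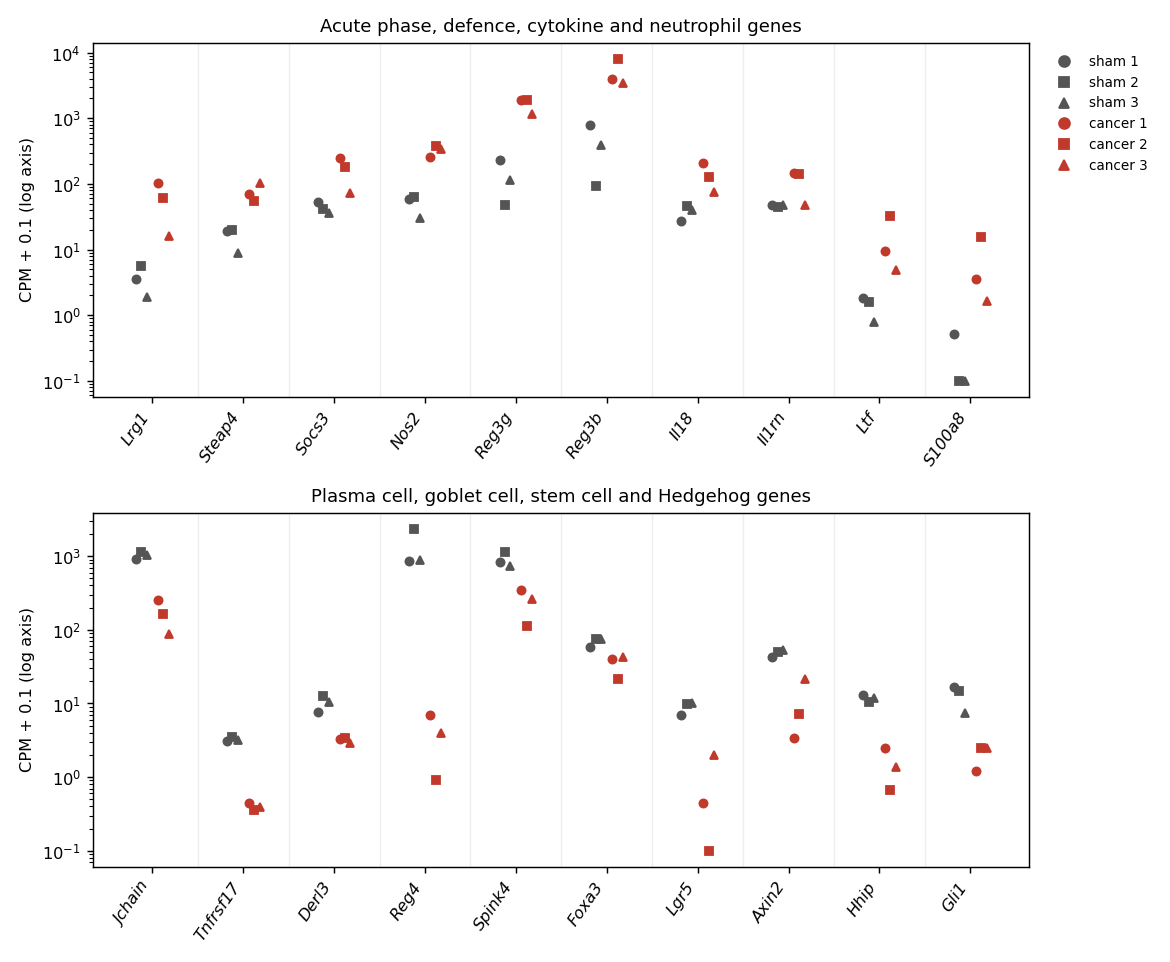
CPM plus 0.1 on a log axis for 10 genes of the acute phase, defence, cytokine and neutrophil lists (top) and 10 genes of the plasma cell, goblet cell, stem cell and niche lists (bottom), with one point for each sham (grey) and cancer (red) library. Reg3g lies at 1148 CPM or more in every cancer library and at 227 CPM or less in sham, and Tnfrsf17 lies at 3.04 CPM or more in sham and at 0.35 CPM or less in cancer.

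Antigen presentation by class I MHC showed smaller differences. Of 11 tested genes, 4 were higher at an unadjusted p under 0.05 and 0 were lower, with a median log2 difference of 0.38, beside 5.38% of all genes higher. Groups did not overlap for 7, all higher, beside 6.96% of all genes. Tap2 and Tap1, the peptide transporter, and Psmb9, an immunoproteasome subunit, had the smallest p. Tap2 was at 94.6, 97.0 and 81.1 CPM in sham and at 174, 185 and 154 CPM in cancer (edgeR adjusted p = 0.235). Tap1 was 1.62-fold and Psmb9 1.39-fold higher. The count of 4 was 1 without sham 1, 1 without sham 2, 2 without cancer 1, 1 without cancer 2, and 2 without both sham 3 and cancer 2. Interferon-induced genes stayed near the background at an unadjusted p under 0.05, with 2 of 31 higher, beside 5.38% of all genes. The list's median log2 difference was 0.22, which turned to -0.22 without cancer 1. The 2 higher genes were Ifit2, an RNA-binding antiviral protein, at 157, 124 and 112 CPM against 557, 349 and 300 CPM, and Xaf1, a promoter of apoptosis, at 78.3, 65.3 and 55.3 CPM against 232, 105 and 112 CPM. That count was 4 without cancer 2, 6 without cancer 3 and 7 without nivolumab 1, and 3 without both sham 3 and cancer 2. Without overlap, 4 of the 31 were higher and 0 lower, beside 6.96% and 12.3% of all genes. Ifi44l, a listed gene that did not pass the filter on low counts, was at 0 in all sham libraries. In cancer 1 to 3 it was at 144, 0 and 58.8 CPM.

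Junction genes of the epithelium leaned higher. Of 22 tested tight and adherens junction genes, 5 were higher at an unadjusted p under 0.05, beside 5.38% of all genes. The list's median log2 difference was 0.25, and 0 were lower. F11r, the junctional adhesion molecule A, was at 305, 240 and 343 CPM in sham and at 462, 445 and 424 CPM in cancer (edgeR adjusted p = 0.296). Cldn7 was 1.38-fold higher without overlap, at 711, 579 and 803 CPM against 942, 954 and 995 CPM. Cldn8, a sealing claudin of the distal colon, was 2.39-fold higher with an overlap. The count of 5 was 2 without sham 1, sham 2, sham 3 or cancer 2, 3 without cancer 1, cancer 3 or nivolumab 3, and 4 without both sham 3 and cancer 2. Epithelial genes were close to this pattern: their mean log2 CPM was 10.1, 9.71 and 10.4 in sham and 10.3, 10.1 and 10.4 in cancer, and their part in the junction values was not tested. Among 30 absorptive and transport genes, 3 were higher and 2 lower at an unadjusted p under 0.05, beside 5.38% and 5.53% of all genes. Of the differences, 15 were positive and 15 negative. The genes named here are single members of a list that went both ways, with a median log2 difference of -0.04. Hsd11b2, which inactivates glucocorticoid in aldosterone target cells, read 110, 80.9 and 131 CPM against 382, 304 and 173 CPM. Scnn1b, a subunit of the epithelial sodium channel, read 4.65, 3.45 and 3.40 CPM against 12.8, 11.3 and 8.55 CPM. Slc12a2, the sodium-potassium-chloride importer of secreting crypt cells, stood the other way at 357, 344 and 398 CPM against 170, 126 and 227 CPM. The 3 higher genes became 6 without sham 3, and 3 without both sham 3 and cancer 2.

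Plasma cell genes were lower in cancer. Of 19 tested genes of B and plasma cells, 5 were lower at an unadjusted p under 0.05 (beside 5.53% of all genes) and 0 were higher, and the median log2 difference was -0.63. All 5 belong to antibody-secreting cells or their formation: Jchain, Tnfrsf17, Derl3, Mzb1 and Pou2af1. Tnfrsf17 is the survival receptor BCMA of plasma cells, and was at 3.04, 3.41 and 3.07 CPM in sham and at 0.35, 0.26 and 0.30 CPM in cancer, a mean 10.5-fold lower (edgeR adjusted p = 0.0760). Derl3, which helps clear misfolded protein from a secretory cell, was at 7.53, 12.7 and 10.2 CPM against 3.24, 3.31 and 2.78 CPM. None of the 5 overlapped between the groups, and 12.3% of all genes were lower without overlap. Cd79a, a B cell receptor component, did overlap, at 12.3, 23.3 and 7.01 CPM against 13.9, 4.57 and 9.20 CPM. The mean log2 CPM of the whole list overlapped as well, at 3.52, 4.10 and 2.53 in sham and 3.18, 1.81 and 2.70 in cancer. Leaving out any 1 colon library left 4 or 5 genes, and 4 were left without both sham 3 and cancer 2. The median was -0.07 without sham 2, and it turned to 0.27, with 4 genes lower, when the cell cycle mean of each library was a covariate.

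Secretory genes of goblet cells were lower for the most part. Of 22 tested goblet cell and mucus genes, 6 were lower and 1 was higher at an unadjusted p under 0.05. Over all genes, 5.53% were lower and 5.38% higher at that p. The list's median log2 difference was -0.58. After Reg4, Spink4, a peptide packed with mucus, was at 847, 1125 and 736 CPM in sham and at 343, 113 and 260 CPM in cancer (edgeR adjusted p = 0.273). Foxa3, a transcription factor of secretory cells, was at 58.2, 75.4 and 75.8 CPM against 40.4, 21.3 and 43.1 CPM. The direction was not shared by all goblet products. Tff3, the trefoil factor of goblet cells, was at 368, 294 and 249 CPM against 614, 609 and 169 CPM (edgeR adjusted p = 0.673). Zg16, a lectin of the mucus layer, was the higher one, at 1716, 1115 and 987 CPM against 4324, 6279 and 1192 CPM. Muc2 was not analysed here. The 6 lower genes became 11 without cancer 1, 3 without cancer 2 and 2 without both sham 3 and cancer 2. The 1 higher gene became 0 without sham 1, sham 2, sham 3, cancer 1, cancer 2 or nivolumab 2. With the cell cycle mean of each library as a covariate, 2 genes were lower, 0 were higher and the median was -0.49. The part of dividing cells in the goblet cell values was not tested.

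Stem cell genes and their Wnt targets were low in cancer 1 and cancer 2 and closer to sham in cancer 3. Of 16 tested intestinal stem cell genes, 4 were lower and 1 was higher at an unadjusted p under 0.05. Over all genes, 5.53% were lower and 5.38% higher at that p. The list's median log2 difference was -0.56. Lgr5, the receptor that marks cycling crypt stem cells, was at 6.93, 9.72 and 9.98 CPM in sham and at 0.35, 0 and 1.89 CPM in cancer, a mean 11.9-fold lower (edgeR adjusted p = 0.366). Axin2, a feedback inhibitor that Wnt signals induce, was at 42.5, 50.1 and 53.9 CPM against 3.32, 7.09 and 21.2 CPM. Rnf43 and Ephb3, further Wnt targets, were 1.79-fold and 2.95-fold lower on average. Nivolumab 1 had little Lgr5 and Axin2 (0.76 and 4.05 CPM), but nivolumab 2 and 3 read 8.73 and 7.47 CPM for Lgr5. The count of 4 was 0 without cancer 1, 1 without cancer 2 and 1 without both sham 3 and cancer 2, so it rests on those libraries. With the cell cycle mean of each library as a covariate, 1 gene was lower and the median was -0.13. The part of dividing cells in the stem cell values was not tested.

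Signalling genes of the crypt niche went both ways. Of 29 tested Wnt, BMP and Hedgehog genes, 7 were lower and 1 was higher at an unadjusted p under 0.05. Over all genes, 5.53% were lower and 5.38% higher at that p. The list had 13 positive and 16 negative log2 differences and a median of -0.26. The median turned to 0.51 without sham 2 and to 0.09 without cancer 3. Hedgehog ligands of the colon epithelium act on the fibroblasts and muscle beneath it, where they switch on Gli1, Hhip and Ptch1. Hhip, a decoy for Hedgehog ligands, was at 12.8, 10.2 and 11.8 CPM in sham and at 2.37, 0.57 and 1.29 CPM in cancer, a mean 8.23-fold lower (edgeR adjusted p = 0.172). Gli1, the pathway's transcription factor, was at 16.8, 14.8 and 7.24 CPM against 1.12, 2.39 and 2.39 CPM. Wnt4, a ligand made in the stroma, was at 8.83, 5.48 and 5.24 CPM against 2.59, 2.57 and 0.90 CPM. The ligand Ihh and the receptor Ptch1 were also among the 7, with log2 differences of -0.66 and -0.86. The count of 7 lower genes was 4 without sham 2 and 7 without both sham 3 and cancer 2. The 1 higher gene, Bmp3, became 4 genes without sham 2, 3 without cancer 1, 6 without cancer 3 and 0 without sham 3 or cancer 2.

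Cell cycle genes were lower in every case but spread widely. All 36 had a negative log2 difference, with a median of -1.02, and 28 had groups without overlap, beside 12.3% of all genes. One of the 36 was at an unadjusted p under 0.05: Pcna, the DNA polymerase clamp, at 99.2, 115 and 118 CPM in sham and 69.8, 30.4 and 63.8 CPM in cancer (edgeR adjusted p = 0.392). Mki67, the proliferation marker, was at 351, 354 and 486 CPM against 218, 23.1 and 235 CPM. Cancer 2 was far under the other cancer libraries, and nivolumab 1 was low as well at 72.0 CPM, beside 345 and 491 CPM in the other nivolumab libraries. Leaving out nivolumab 1 gave 8 genes, and leaving out cancer 1 gave 2. There were 0 without sham 2, without sham 3, without cancer 2 and without both sham 3 and cancer 2.

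Ribosomal protein genes were lower in all 3 cancer libraries. All 72 tested genes had a negative log2 difference, between -1.19 and -0.13 with a median of -0.46. At an unadjusted p under 0.05, 43 were lower, beside 5.53% of all genes. Groups did not overlap for 52, all lower, beside 12.3% of all genes. The summed level of the 72 was 35740, 39436 and 41837 CPM in sham and 28373, 24048 and 32455 CPM in cancer. Nivolumab libraries reached 49157, 48336 and 41344 CPM. Rpl29 was at 441, 492 and 535 CPM against 220, 178 and 243 CPM, with a log2 difference of -1.19 ± 0.16 (edgeR adjusted p = 0.0748). Rps15a was at 330, 348 and 368 CPM against 227, 192 and 227 CPM, and Rps7 at 508, 536 and 623 CPM against 328, 251 and 353 CPM. Cancer 2 was lowest for both ribosomal and cell cycle genes. Nivolumab 1 was low for cell cycle genes (3.69 as mean log2 CPM) and had the highest ribosomal mean of the 9 libraries (9.23). With the cell cycle mean of each library as a covariate, the ribosomal median was -0.40, with 31 of 72 genes lower. With the smooth muscle mean as a further covariate, the median was -0.42, with 23 of 72 lower. The part of dividing cells in the ribosomal values was not tested. The count of 43 was 23 without sham 3, 26 without cancer 1, 20 without cancer 2 and 6 without both sham 3 and cancer 2.

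**Figure D4:**
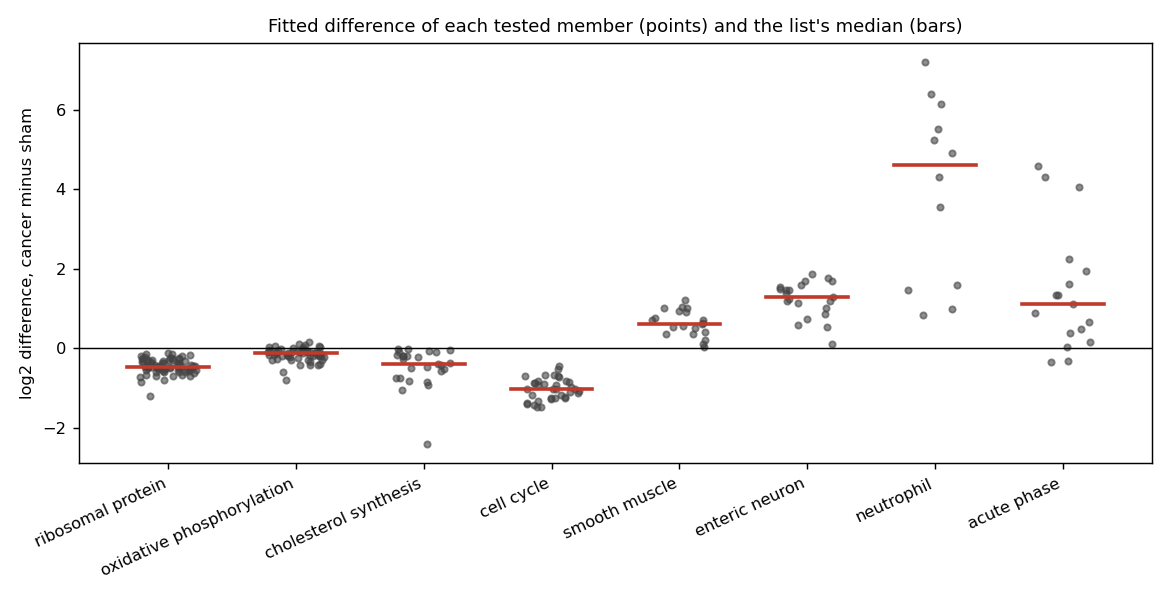
Log2 difference of cancer minus sham (y axis) for every tested member of 8 gene lists, with one point per gene and a bar at the list's median. Mmp8 and Ngp, at 0 in every sham library, are drawn at their lower bounds. All 72 ribosomal protein genes and all 36 cell cycle genes lie under 0, and the 12 neutrophil genes, which are low in sham, lie above it.

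Sterol synthesis genes, which SREBP2 switches on when membranes lack cholesterol, were lower. All 26 had a negative log2 difference, with a median of -0.38. An unadjusted p under 0.05 was reached by 9, all of them lower, beside 5.53% of all genes lower. Insig1, the sensor that holds SREBP in the endoplasmic reticulum, was at 152, 186 and 95.2 CPM in sham and at 67.4, 69.5 and 71.5 CPM in cancer (edgeR adjusted p = 0.206). Tm7sf2, a sterol reductase, was at 31.5, 37.5 and 31.2 CPM against 16.9, 13.8 and 22.3 CPM. Neither overlapped between the groups. The count of 9 was 5 without sham 2 and 6 without both sham 3 and cancer 2.

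Glucocorticoid-induced genes were higher, most of all in cancer 2. Of 19 tested, 7 were higher at an unadjusted p under 0.05, beside 5.38% of all genes, and 0 were lower. The list's median log2 difference was 0.86. Zbtb16 was at 2.63, 7.14 and 9.98 CPM in sham and at 53.1, 88.4 and 41.0 CPM in cancer (edgeR adjusted p = 0.11). Hif3a, a subunit of the hypoxia-inducible factor family, was at 7.98, 9.29 and 6.54 CPM against 23.7, 50.7 and 14.6 CPM. Nfkbia, the inhibitor of NF-kappa B and itself induced by it, was at 70.9, 69.1 and 66.5 CPM against 134, 139 and 85.6 CPM. The count of 7 was 4 without cancer 2 and 2 without both sham 3 and cancer 2. Clock genes share members with this list. Of 19 tested clock genes, 4 were higher at an unadjusted p under 0.05, beside 5.38% of all genes, with 0 lower. They were Ciart, Per1, Bhlhe40 and Hlf. Per1, which glucocorticoids also induce, was at 48.9, 61.2 and 42.1 CPM against 96.8, 195 and 85.4 CPM. That count was 11 without cancer 1 and 1 without cancer 2, and 4 without both sham 3 and cancer 2. Sampling times were not given in the sources used here.

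Metabolic genes stood apart in both directions. Of 22 tested xenobiotic metabolism genes, 5 were lower (beside 5.53% of all genes) and 1 was higher at an unadjusted p under 0.05. Beside Gsta3 these included Gstm1, a further glutathione S-transferase, at 178, 211 and 187 CPM in sham and 113, 139 and 130 CPM in cancer, and Cbr3, a carbonyl reductase, at 24.3, 22.6 and 19.1 CPM against 3.06, 3.44 and 8.70 CPM. The 5 lower genes were 5 without both sham 3 and cancer 2, and 4 to 6 with any 1 library left out. Of 15 tested urea cycle and arginine genes, 2 were lower and 1 was higher at an unadjusted p under 0.05, beside 5.53% and 5.38% of all genes. Without overlap, 3 were lower and 1 was higher, beside 12.3% and 6.96% of all genes. Cps1, the first enzyme of the urea cycle, was at 58.0, 28.9 and 9.01 CPM in sham, at 0 in cancer 1 and cancer 2, and at 0.15 CPM in cancer 3. Its summed counts were 2832 against 3, a ratio of 721-fold with a 95% interval of 247 to 3499 (edgeR adjusted p = 0.0748). Otc, the next enzyme of that cycle, was at 25.1, 9.41 and 23.7 CPM against 6.73, 1.17 and 9.79 CPM, with an overlap. Of 18 hypoxia and glycolysis genes, 4 were higher at an unadjusted p under 0.05, beside 5.38% of all genes, and 0 were lower. Hk2, which traps glucose in the cell, was at 296, 251 and 332 CPM against 785, 584 and 503 CPM (edgeR adjusted p = 0.181). Bnip3, a mitophagy receptor, and Adm, the vasodilator adrenomedullin, were 3.53-fold and 1.91-fold higher without overlap. The hypoxia count was 2 without both sham 3 and cancer 2.

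**Figure D5:**
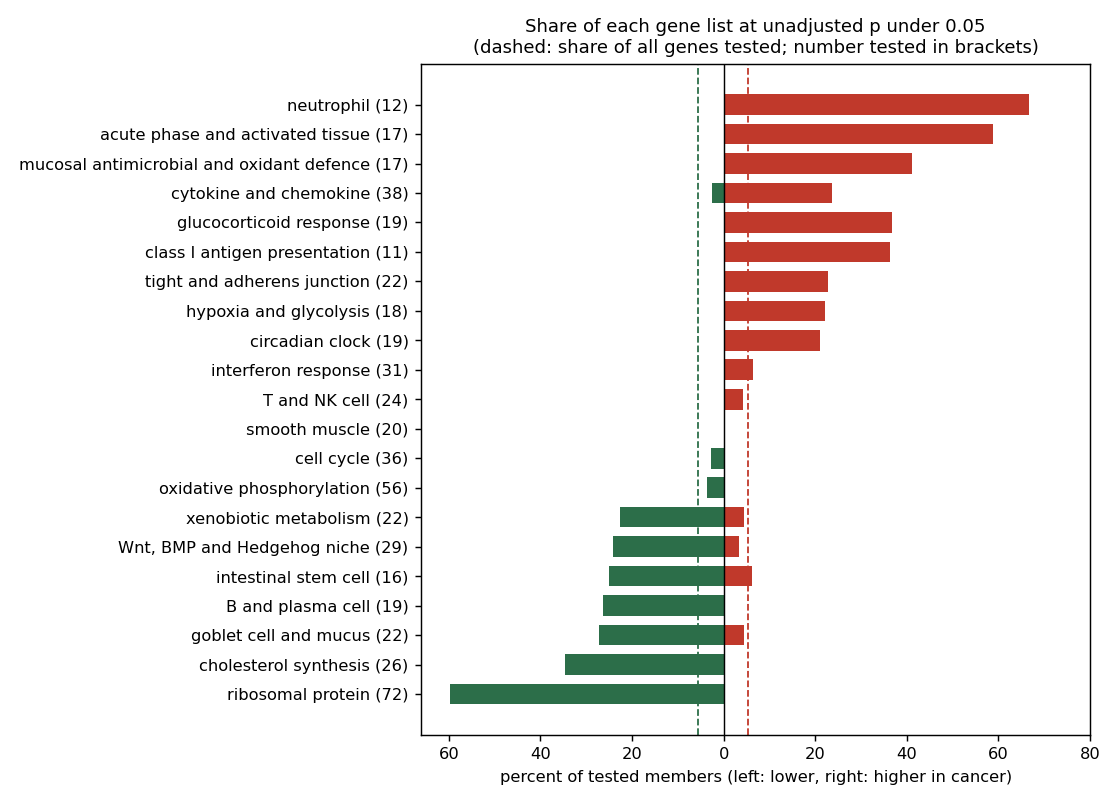
Percent of tested members at an unadjusted p under 0.05 (x axis, lower in cancer to the left in green, higher to the right in red) for 21 gene lists, with the number tested in brackets. Dashed lines mark the shares over all genes, 5.53% lower and 5.38% higher. Neutrophil and acute phase genes reach furthest to the right and ribosomal protein genes furthest to the left. The neutrophil bar is a description only, because a gene near 0 in sham could be tested only through a group where it was high. With sham and cancer libraries only, 8 neutrophil genes were tested and 5 were higher.

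Muscle and nerve genes varied between libraries without separating the groups. All 21 enteric neuron genes had a positive log2 difference, with a median of 1.30, and none had groups without overlap. The median was 0.27 without cancer 2 and turned to -0.19 without both sham 3 and cancer 2, so its direction rests on those libraries. Tac1, which encodes substance P, was the 1 at an unadjusted p under 0.05, at 10.7, 26.0 and 3.04 CPM in sham and 43.8, 62.0 and 23.4 CPM in cancer. Myh11, the smooth muscle myosin, was at 2195, 5345 and 284 CPM against 2149, 3937 and 7144 CPM, with 0 of 20 muscle genes at an unadjusted p under 0.05. The neuron count was 12 without sham 2, 3 without cancer 1, 2 without cancer 3 and 0 without sham 1, cancer 2 or both sham 3 and cancer 2. The muscle count was 11 without sham 2 and 0 without both sham 3 and cancer 2, and the muscle median, 0.62, ran from 0.08 without cancer 3 to 1.83 without sham 2. T and NK cell genes stood near the background, with 1 of 24 higher, beside 5.38% of all genes, and 0 without both sham 3 and cancer 2.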

How the data were processed

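The colon table deposited by the authors held raw whole-number counts per gene for 9 libraries, with no normalisation. Per the submitters' processing notes, the tools were StringTie, HISAT2, Trimmomatic and FastQC 0.11.5, in no stated order, with GRCm38 as build. RNA was extracted with TRIzol and libraries were made with a SmartScribe reverse transcriptase kit, per the labels' protocols. The counting tool, strand setting, annotation and gene filters were not given in the sources used here. Dorsal horn counts were not used here.

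Counts were fitted in R 4.3.3 with edgeR 4.0.16: genes were filtered with filterByExpr (minimum count 10), scaled by TMM and tested by the robust quasi-likelihood F test, two-sided, cancer minus sham, over all 9 colon libraries. P-values were adjusted by Benjamini-Hochberg over 13445 genes, with a threshold of 0.05. The spread is that of 3 libraries a group. The fit was tested on simulated data. CPM are TMM-scaled, and intervals and floors cover counting error only. DESeq2 1.42.0 and limma 3.58.1 were alternatives, beside other scalings, filters, covariates and the omission of each library. Symbols were matched to GENCODE M21, 14985 of 14987. No gene of the mitochondrial genome was in the table.

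Genes were named by a rule: a mean log2 CPM of at least 1 over the 6 libraries and no overlap, then the 12 with the smallest p in each direction, since none passed, and in each of 56 gene lists (1212 genes) up to 3 members with the smallest p. Other genes in the text, the neighbours of Ly6d and the motif were chosen after values were seen. The comparison and the lists were chosen with earlier results of these data known. Upstream sequences are from RefSeq. One gene that the rule named, and 1 member of the sterol list, are not reported here by name and stay in the counts.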

Additional observations from a re-analysis of the deposited data

How the results depend on the processing

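The count of 0 genes past an adjusted p of 0.05 depended on the tool: DESeq2 gave 384 and limma-voom with quality weights gave 31. The count ranged from 0 to 9 when 1 library was left out, with 1 gene without cancer 2 and 9 without cancer 3. The other scalings and filters, plain limma-voom, the smooth muscle and cell cycle covariates and the fit without sham 3 and cancer 2, an alternative added after seeing the data, gave 0. Of the 24 genes with the smallest p, 23 passed in DESeq2 and 16 with quality weights, and none reversed under any alternative. With a replicate block, 1 gene passed. Deviations from the group means of same-numbered sham and cancer libraries correlated across genes at -0.24, 0.46 and 0.18, so the numbers were not taken as pairs. DESeq2 tested 13434 genes and plain limma-voom found 1577 at an unadjusted p under 0.05. A spread of 0.376 with 3 libraries a group limits what the main test can call.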

Other observations

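Serotonin genes went both ways, with 6 of 12 log2 differences positive and a median of -0.04. At an unadjusted p under 0.05, 3 were lower, beside 5.53% of all genes, and 0 higher; the count was 2 without sham 1, sham 2, sham 3, cancer 1, cancer 3, nivolumab 2 or nivolumab 3, 1 without cancer 2 and 0 without both sham 3 and cancer 2. Ddc, the enzyme that makes serotonin from its precursor, was at 36.5, 49.1 and 36.8 CPM in sham and at 25.2, 21.2 and 22.5 CPM in cancer. Of 20 enteroendocrine genes, 2 were lower (2 without both sham 3 and cancer 2), beside 5.53% of all genes. They were the transcription factors Rfx6 and Isl1, at 1.65, 1.07 and 1.17 CPM against 0.17, 0.35 and 0.65 CPM and at 1.52, 1.31 and 1.64 CPM against 0.39, 0.52 and 0.75 CPM. Ptgs1, the constitutive cyclooxygenase, was at 40.4, 69.6 and 27.7 CPM in sham and at 91.8, 181 and 138 CPM in cancer. It was among 3 of 37 neurotrophic and nociceptive genes that were higher, beside 5.38% of all genes. That count was 1 without both sham 3 and cancer 2, 1 without sham 1, 1 without cancer 2 and 6 without sham 2.

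Macrophage and fibroblast genes went both ways. Of 18 tested macrophage genes 2 were lower and 1 higher at an unadjusted p under 0.05, beside 5.53% and 5.38% of all genes. Those counts were 3 and 1 without both sham 3 and cancer 2, and the 2 lower became 4 without cancer 2. Of 17 fibroblast genes 2 were lower and 0 higher, beside 5.53% of all genes lower, with 8 positive and 9 negative log2 differences. That count was 0 without sham 2, cancer 1 or cancer 3 and 4 without both sham 3 and cancer 2. Folr2, a marker of resident macrophages, was at 2.60, 3.25 and 2.30 CPM in sham and at 0.60, 0.65 and 0.70 CPM in cancer, while Cd14 was higher at 36.8, 59.3 and 46.0 CPM against 130, 73.2 and 68.1 CPM. Col14a1 and Mfap5, matrix genes, were the 2 fibroblast genes, at 20.8, 25.1 and 10.2 CPM against 4.66, 7.44 and 5.37 CPM and at 7.95, 9.96 and 3.84 CPM against 0.91, 2.35 and 1.24 CPM. Hoxd13, a position gene of the hindgut, varied within sham at 4.15, 36.8 and 1.00 CPM and lay at 1.90, 0.26 and 0 CPM in cancer.

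Nivolumab libraries of the colon read as follows for genes named above. Tnf was at 13.2, 13.5 and 22.2 CPM, Lpo at 82.0, 42.1 and 94.5 CPM, Nos2 at 58.4, 191 and 288 CPM, and Jchain at 224, 165 and 295 CPM.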
